A study of Homo sapiens with 16 samples.

Results

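The genes described here are 52 genes of mitosis and of the passage from G2 into mitosis, listed by symbol for their known function. SUM225 is a breast cancer cell line in which the gene for the receptor tyrosine kinase HER2 (ERBB2) is amplified and over expressed. Parallel cultures received 1 µM of CP724,714, an inhibitor of the HER2 kinase, and RNA was taken every 3 h from 0 h to 45 h. Each of the 16 time points was measured on 1 Illumina bead array, and no untreated culture was followed alongside, so an effect of the drug and an effect of time in culture cannot be told apart. The labels give a medium with serum, insulin and hydrocortisone, whereas the methods of the study describe this line as grown without serum or insulin, so the medium of these cultures is not settled. A member entered the tests if a probe carrying its symbol was detected (detection p under 0.05) on 3 or more of the 16 arrays. Of the 52 genes, 50 had probes and all 50 of these were tested, through 64 of 67 probes; KIF22 and ECT2 had no probe used here. The whole table held 24526 probes, of which 16110, for 13108 symbols, were tested.

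Mitosis is started by CDK1 bound to cyclin A or cyclin B, which CDC25 phosphatases switch on and which Polo-like and Aurora kinases work beside. The spindle checkpoint holds cells before anaphase until every kinetochore is attached, and the anaphase-promoting complex with CDC20 then marks cyclin B and securin for destruction. Transcripts of these genes are made late in the cell cycle, after those of DNA replication. The MuvB complex with B-MYB and FOXM1 raises them in G2, and the same complex within DREAM holds them down in resting cells. In both cases it acts through a promoter element called the cell cycle genes homology region (CHR). The CCAAT box, counted below beside the CHR, is a separate promoter element. In RNA from a whole culture, fewer cells in G2 or mitosis and less RNA per cell cannot be told apart.

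The promoters of 4 members whose late drop is described further on are shown because they carry the CHR, the letters TTTGAA, on either strand, together with a CCAAT box. They are RefSeq sequences of GRCh38.p14, each running from 220 bases before the annotated start to the 30th base of the transcript, 5′ to 3′ on the strand of the gene, with every CHR (TTTGAA or, read from the other strand, TTCAAA) and every CCAAT box (CCAAT or ATTGG) in capitals. They lie at chr1:43358761-43359010 on the plus strand (CDC20), chr16:23678669-23678918 on the plus strand (PLK1), chr15:59104926-59105175 on the plus strand (CCNB2) and chr17:40417867-40418116 on the minus strand (TOP2A). CCNB2 was added after its values were seen. The others come from a longer list set by name, of which only members with a CHR are shown. CCNB1, CCNA2, BUB1 and KIF20A were on that list and had no such letters in their promoter, and their late drop is also described further on. CDC2, AURKA, UBE2C and BUB3 were on it too and had no promoter to search.
CDC20: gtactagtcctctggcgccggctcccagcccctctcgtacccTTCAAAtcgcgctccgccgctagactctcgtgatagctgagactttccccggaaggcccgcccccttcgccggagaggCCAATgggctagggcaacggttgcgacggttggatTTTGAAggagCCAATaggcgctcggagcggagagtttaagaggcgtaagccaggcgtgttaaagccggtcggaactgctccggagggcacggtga
PLK1: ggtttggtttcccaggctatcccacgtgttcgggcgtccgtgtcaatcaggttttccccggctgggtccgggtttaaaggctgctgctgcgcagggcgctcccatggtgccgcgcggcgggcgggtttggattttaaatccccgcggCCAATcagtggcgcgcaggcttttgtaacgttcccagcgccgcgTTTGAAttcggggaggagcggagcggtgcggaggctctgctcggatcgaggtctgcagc
CCNB2: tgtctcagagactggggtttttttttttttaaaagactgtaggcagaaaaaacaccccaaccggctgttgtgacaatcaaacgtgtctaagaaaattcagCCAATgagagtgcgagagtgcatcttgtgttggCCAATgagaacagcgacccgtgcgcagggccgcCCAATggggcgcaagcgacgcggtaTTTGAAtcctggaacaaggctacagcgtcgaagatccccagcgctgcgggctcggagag
TOP2A: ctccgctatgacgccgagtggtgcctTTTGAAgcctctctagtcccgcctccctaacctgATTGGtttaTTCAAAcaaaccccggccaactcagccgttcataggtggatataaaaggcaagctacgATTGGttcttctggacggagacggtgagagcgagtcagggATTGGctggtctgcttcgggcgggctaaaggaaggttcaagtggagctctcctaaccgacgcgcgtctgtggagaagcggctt

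In PLK1 and in CCNB2 the CHR began 29 bases before the start, with a CCAAT box 73 bases before the start in PLK1 and boxes 54, 87 and 120 bases before it in CCNB2. In CDC20 the nearer CHR began 65 bases before the start, between CCAAT boxes that began 100 and 55 bases before it, and a second copy lay on the other strand. In TOP2A the CHR copies began 194 and 151 bases before the start. Of the 50 members, 40 matched an entry of the promoter table, which holds 300 bases per gene (250 before and 50 after the start); CDC2, AURKA, PBK, BUB3, TTK, UBE2C, BIRC5, TPX2, TROAP and FOXM1 did not. A CHR was present in 26 of the 40 (65%), against 15.4% of all 27305 promoters in the table, and a CCAAT box in 29 (72.5%), against 35.7%. Both were present in 22 of the 40 (55%), against 6.08% of all promoters. A CHR that began within the last 50 bases before the start was found in 15 of the 40 (37.5%), against 2.57% of all promoters. An E2F motif, taken as TTTCCCGC, TTTGGCGC, TTTCGCGC or TTTGCCGC on either strand, was present in 4 members (CENPA, KIF15, NUSAP1 and CDCA5, 10%), against 3.33% of all promoters. Among 38 DNA replication genes with a promoter in the table the order was the other way round, with an E2F motif in 44.7% and a CHR in 5.26%. A CCAAT box was present in 55.3% of these 38. Over the 9641 promoters of genes tested, the shares were 10.2% for the CHR, 37.4% for the CCAAT box and 5.07% for an E2F motif. These letters are a description of the windows and not of bound sites.

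All values below are log2 signals after background correction and quantile normalization across the 16 arrays. A difference of 1 is a doubling or a halving of the signal. With 1 array per time point there are no replicates, and the error given as ± is the standard error of a limma fit over the 16 arrays, which rests on how far the arrays lie from the fitted course. The separate cultures behind the arrays are not replicates of any time point, so the p-values describe this course and not a repeat of it. A change is said to have passed the test where its p-value, adjusted by Benjamini-Hochberg over all 16110 probes, was under 0.05. Where a gene had several tested probes, the probe with the highest mean signal stood for it. That probe was detected on all 16 arrays for 47 of the 50 genes, the others being MAD2L1 (11 arrays), CENPE (12) and KIF15 (13). Median raw intensities of the arrays ranged from 242 to 384, and 57.5% to 61.5% of probes were detected. At 21, 24, 27 and 30 h the medians were 361, 276, 384 and 282, so the shape of a course there rests on the normalization. The raw signal of CCNB1, for example, rose from 1854 at 24 h to 2541 at 27 h, where its normalized signal fell from 10.76 to 10.52. The luminal and amplicon markers ERBB2, GRB7, STARD3, KRT8, KRT18, KRT19, EPCAM and CDH1 were detected on all 16 arrays. Of 11 markers of other cell types, COL3A1, DCN, LUM and PTPRC were detected on no array, CDH5 and CD3E on 1, and COL1A1 and COL1A2 on 5. The endothelial markers VWF and PECAM1 were detected on 13 and 16 arrays at raw intensities of at most 468 and 518, and the monocyte marker CD14 on 16 at 1923 to 4563. VWF rose over the course (2.49 ± 0.27, adjusted p = 4.04e-07) and CD14 rose by 0.34 (adjusted p = 0.0496), and their part in the results was not tested.

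Mitosis and G2/M transcripts fell together in SUM225 cells as a function of time in CP724,714. All 50 genes fell over the 45 h, by a median of -2.68 on the log2 scale, with a range from -3.85 ± 0.31 for CDCA3 to -0.68 ± 0.13 for ESPL1. Over all probes tested the median change was 0.05. The falling linear trend passed the test in 50 of the 50 genes, where 21.7% of all probes fell, and none rose, where 26.0% of all probes rose. A course that depended on time at all was called for 50 of the 50 genes and for 51.3% of all probes. The course of 25 genes departed from a straight line, against 19.3% of all probes. Counted by probe, 63 of 64 fell. The exception was a dim second probe of ZWINT (+0.56, adjusted p = 0.0865, detected on 14 arrays), while the brighter ZWINT probe fell by 2.99. Where the 4 consecutive sets of 4 arrays (0 to 9, 12 to 21, 24 to 33 and 36 to 45 h) were allowed a level each and the trend was read only from within them, the fall passed the test in 11 genes, against 0.478% of all probes, with a median of -1.82.

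**Figure D1:**
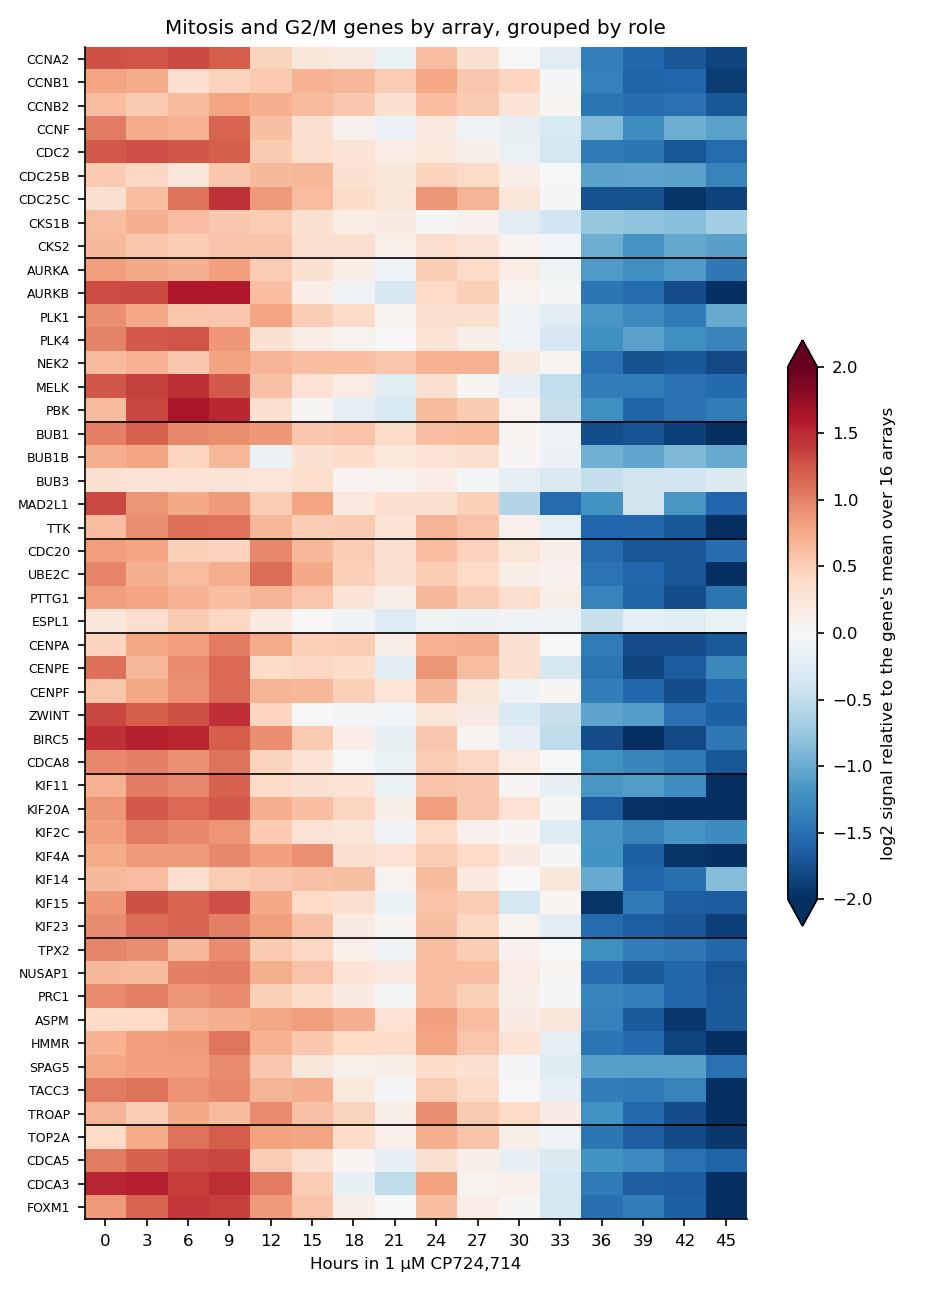
Log2 signal of the 50 tested mitosis and G2/M genes on each of the 16 arrays (columns, hours in CP724,714), as the difference from the mean of the gene over all arrays, red above and blue below; black lines separate the groups by role. In nearly every row, BUB3, ESPL1 and MAD2L1 apart, the colour turned from pale to dark blue between the 33 h and 36 h arrays, and the column at 24 h was redder than that at 21 h.

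The joint course had a lag, a slow decline, a partial return and a drop. Relative to the mean of each gene, the median of the 50 genes was 0.83, 0.82, 0.89 and 0.96 at 0, 3, 6 and 9 h. It was 0.63, 0.49, 0.26 and 0.08 at 12, 15, 18 and 21 h. It stood at 0.58 at 24 h and then at 0.41, 0.07 and -0.11 at 27, 30 and 33 h. On the last 4 arrays it was -1.35, -1.53, -1.58 and -1.65. The last 4 values lie well apart from the 12 before them, and the first 4 do not decline.

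**Figure D2:**
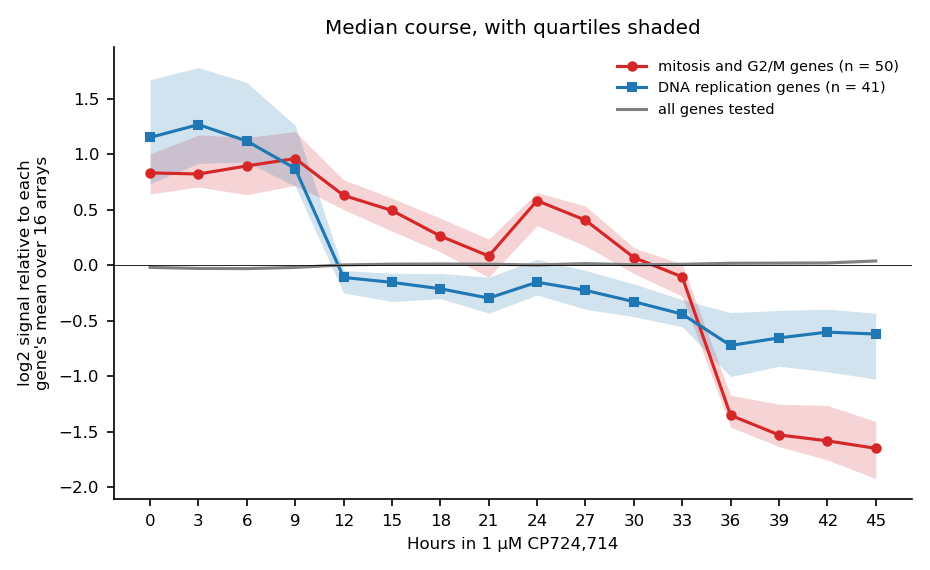
Median log2 signal relative to the mean of each gene over 16 arrays (y axis) against hours in CP724,714 (x axis), for the 50 mitosis and G2/M genes, 41 DNA replication genes and all genes tested; shading spans the quartiles over genes, not an error of measurement. The replication genes fell between 9 and 12 h (from 0.87 to -0.11), the mitosis genes between 33 and 36 h (from -0.11 to -1.35).

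The members shared this shape closely. Pearson's r of a gene with the median course of the other members, over the 16 arrays, had a median of 0.975, and 47 of 50 genes were over 0.9. The lowest were ESPL1 (0.72), MAD2L1 (0.83) and BUB3 (0.90), and the highest was KIF23 (0.996). After the cubic trend was taken out of each gene, the median r was still 0.90, with 49 of 50 over 0.5. MAD2L1 was the exception (-0.08). These points share arrays and normalization, so no p-value is given. Among the 13058 other genes tested, 139 (1.06%) had an r over 0.9 with the members' median. The 10 most alike were OIP5 (0.995), RACGAP1 (0.994), CEP55 (0.994), GTSE1 (0.992), C20orf129 (0.990), WDR51A (0.986), PRR11 (0.985), DKFZp762E1312 (0.984), CDKN3 (0.983) and FLJ40629 (0.982). Their linear changes ran from -3.15 for DKFZp762E1312 to -2.34 for RACGAP1, inside the range of the members.

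During the first 9 h most members did not fall. The change within 0 to 9 h had a median of 0.05 over the 50 genes. It was a rise that passed the test in 6 genes, against 9.04% of all probes, and a fall in 1, against 8.70%. The rise was largest for CDC25C, the phosphatase that activates CDK1, at 1.15 ± 0.14, with signals of 10.90, 11.18, 11.66 and 12.02 at 0, 3, 6 and 9 h. The mitotic kinase PBK rose by 0.88 ± 0.26 and topoisomerase TOP2A by 0.84 ± 0.13. The centromeric histone CENPA (0.54 ± 0.17), the spindle protein NUSAP1 (0.46 ± 0.13) and the cohesion factor CDCA5 (0.30 ± 0.10) completed the 6. CDC20 was the gene that fell, by -0.43 ± 0.12. Both shares of members lie near or below those of all probes. These counts rest on single arrays: without the 0 h array 2 genes rose and 0 fell, without the 9 h array 3 rose and 0 fell, and without the 45 h array 10 rose. With arrays scaled to a common median in place of quantile normalization, 3 genes rose.

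Between the mean of 0 to 9 h and the mean of 12 to 21 h, 31 of 50 genes fell, against 13.9% of all probes, by a median over the 50 of -0.48. The early fall was largest in AURKB (-1.37), PBK (-1.32), CDCA3 (-1.26), ZWINT (-1.23), MELK (-1.12), BIRC5 (-1.09), CCNA2 (-1.08) and CDCA5 (-1.04). It was close to 0 in CCNB1 (+0.02), CDC25B (+0.04), CDC20 (-0.03), NEK2 (-0.06), KIF14 (-0.07), UBE2C (-0.09) and CCNB2 (-0.09), none of which passed the test. A step between 9 and 12 h beyond a smooth course was called in 5 genes, against 6.06% of all probes, a share near that of the table. They were PBK (-1.80 ± 0.46), AURKB (-1.46 ± 0.40), ZWINT (-1.15 ± 0.26), CDCA5 (-1.02 ± 0.25) and the kinesin KIF11 (-0.99 ± 0.32).

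The decline went on within the sets of arrays. Within 12 to 21 h the slope was downward in 49 of 50 genes, with a median change of -0.54, and passed the test in 15, against 0.428% of all probes. Within 24 to 33 h it was again downward in 49 of 50, with a median of -0.67, and passed in 15, against 0.230% of all probes. The genes that passed in both were CDC25C, AURKA, MELK, BIRC5, KIF23, NUSAP1, TOP2A and CDCA5. Within 36 to 45 h the median change was -0.26, and 5 genes (AURKB, KIF20A, HMMR, TROAP and CDCA3) passed, against 0.292% of all probes. Each slope rests on 4 arrays. Without the 12 h or the 21 h array no gene passed within 12 to 21 h, and without the 15, 18 or 30 h array 9, 7 and 9 did. Without the 24 h or the 33 h array no gene passed within 24 to 33 h, without the 27 or 30 h array 4 and 3 did, and with median scaling 6 did.

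Signals were higher at 24 h than at 21 h in 49 of 50 genes, by a median of 0.46, and by 0.5 or more in 24 genes. CKS1B was the exception (-0.14). The largest such differences were those of CDCA3 (from 9.43 to 10.73), CENPE (from 7.13 to 8.23) and PBK (from 7.54 to 8.48). Before normalization the 24 h array was dimmer, with a median raw intensity of 276 against 361 at 21 h. Raw signals went both ways. That of CDCA3 rose from 1169 to 1825, while that of CCNB1 fell from 2210 to 1854 and that of CDC20 from 18496 to 16408. In genes like the latter the rise appears only after normalization. A step up between 21 and 24 h beside the smooth course passed the test in 23 genes, against 1.72% of all probes. With steps at 9, 21 and 33 h fitted together it passed in 22, with a median step of 0.69. The count fell to 9 without the 18 h array, 10 without the 21 h array, 15 without the 24 h array and 12 without the 27 h array. The means of the 12 to 21 h and 24 to 33 h sets differed little: the median difference was -0.18, and 1 gene, CKS1B (-0.41, adjusted p = 0.00932), passed the test for a fall, against 3.38% of all probes.

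The drop between 33 and 36 h was the largest change of the course. From 1 array to the next, 49 of 50 genes were lower, with a median difference of -1.22, where the median over all genes was 0.0066. The genes were lower by 0.5 or more in 46 cases and by 1 or more in 35, against 5.60% and 0.954% of all genes. It was the largest drop between adjacent arrays for 46 of the 50 members and for 4.98% of all genes. The exceptions were PBK and ZWINT, with their largest drop between 9 and 12 h, BUB3, between 15 and 18 h, and MAD2L1, whose largest drop could not be placed because it was not detected at 30, 33 and 36 h. CENPE and KIF15, not detected at 36 h, are counted with the values they had there. In the other 14 intervals the median change of the members lay between -0.36 (9 to 12 h) and +0.46 (21 to 24 h). The arrays at 33 h and 36 h were alike in median raw intensity, 274 and 272. The raw signal of CDC20, before any correction, was 11323 at 33 h and 3578 at 36 h, and that of CCNB1 was 1082 and 517.

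**Figure D3:**
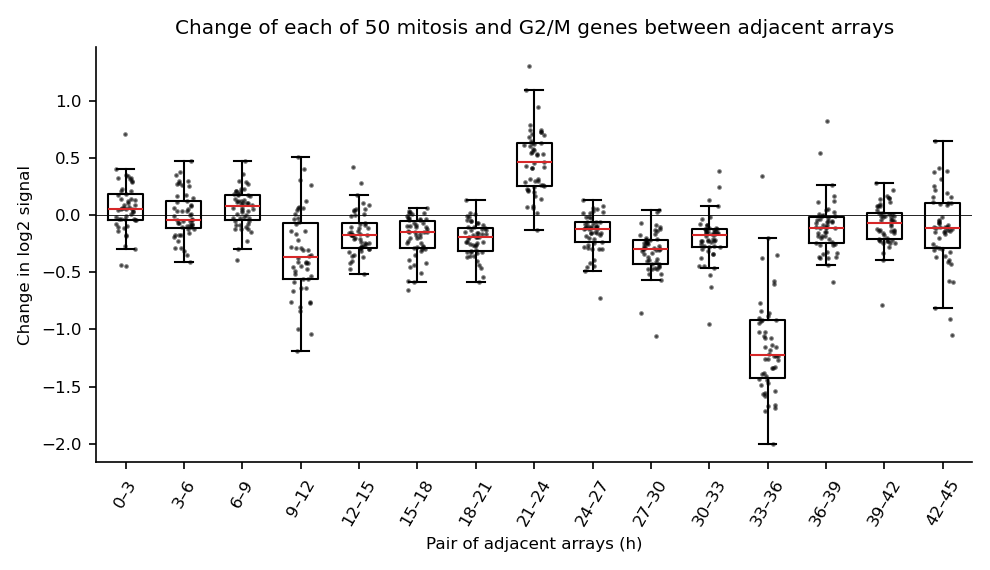
Change in log2 signal between adjacent arrays (y axis) for each of the 50 mitosis and G2/M genes (points), at each of the 15 intervals (x axis, hours); boxes span the quartiles, the red line is the median and whiskers reach at most 1.5 box lengths. The box for 33 to 36 h lies below all the others, with a median of -1.22, and that for 21 to 24 h lies above them, with a median of 0.46.

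Tested as a step between 33 and 36 h on top of a smooth course, the drop passed in 25 of 50 genes, against 0.323% of all probes. The 52 probes called in the whole table included 28 probes of members. The median step over the 50 genes was -1.21. The largest fitted values were those of CDC20 (-1.80 ± 0.20, adjusted p = 0.000255), CENPE (-1.73 ± 0.43, adjusted p = 0.154) and CDC25C (-1.72 ± 0.34, adjusted p = 0.0286). CENPE was not detected on any array from 36 h on, so its value has no rank among them. The 3 smallest values were those of ESPL1 (-0.28 ± 0.20), BUB3 (-0.19 ± 0.12) and MAD2L1 (+0.54 ± 0.51). The number of genes that passed depended on single arrays near the drop and at the end: it was 6 without the 36 h array, 9 without 45 h, 10 without 39 h, 14 without 30 h or without 33 h, and 16 without 27 h, while the median step stayed between -1.29 and -1.15 when any 1 array was left out. It was 14 without background correction. A straight line with a step over the last 8 arrays alone gave 22 genes, against 0.267% of all probes, and a cubic with steps at 9, 21 and 33 h gave 33, against 0.596%.

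Set against each other, the means of the 24 to 33 h and 36 to 45 h arrays differed by a median of -1.78 over the 50 genes, and 47 fell, against 2.82% of all probes. BUB3 (-0.28), MAD2L1 (-0.75) and ESPL1 (-0.15) did not pass. The place of the step was known beforehand from these same arrays. The boundaries at 9 to 12 h, 21 to 24 h and 33 to 36 h also fall between consecutive sets of 4 arrays, and the labels name no batch, so a batch of arrays and the time in drug cannot be told apart at these 3 places.

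The late fall exceeded the early one in most members. The difference between the change from 24 to 33 h to 36 to 45 h and the change from 0 to 9 h to 12 to 21 h passed the test toward a larger late fall in 36 of 50 genes, against 5.51% of all probes, and toward a larger early fall in 0, against 6.28%. It was largest in ASPM (-2.23 ± 0.22), TROAP (-2.06 ± 0.26), CCNB1 (-2.06 ± 0.21) and NEK2 (-2.03 ± 0.18). The 14 genes in which the difference did not pass were CCNF, CKS1B, AURKB, PLK4, MELK, PBK, BUB3, MAD2L1, ESPL1, ZWINT, BIRC5, KIF11, CDCA5 and CDCA3. In ZWINT both falls were equal, at -1.23. The 41 tested DNA replication genes (MCM proteins, polymerases, clamp loaders and related factors) ran the other way, with a larger early fall in 31 and a larger late fall in 0. Of these 41, 38 fell between 0 to 9 h and 12 to 21 h and 15 between 24 to 33 h and 36 to 45 h, and none had a step down between 33 and 36 h that passed. This test was chosen after the courses had been seen.

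**Figure D4:**
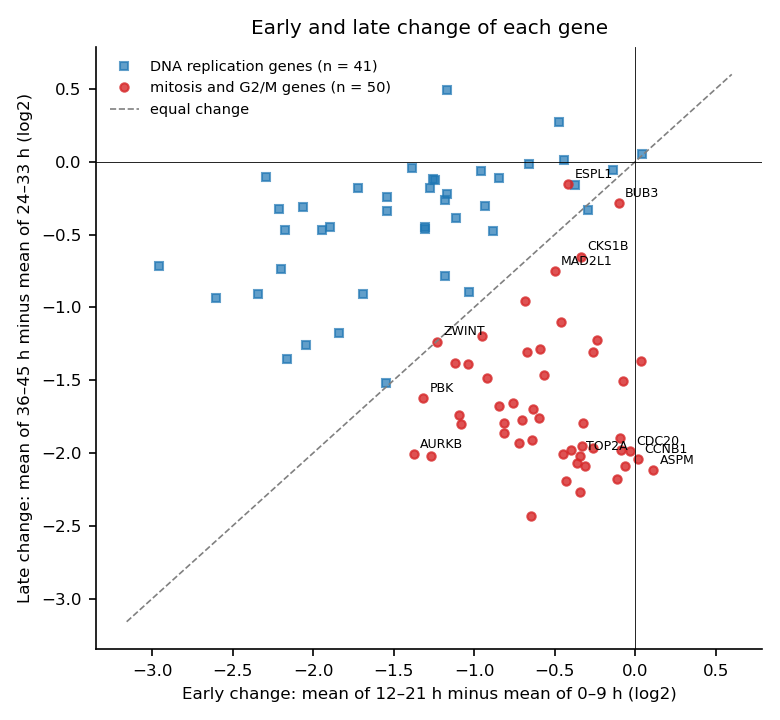
Early change (x axis, mean of 12 to 21 h minus mean of 0 to 9 h) against late change (y axis, mean of 36 to 45 h minus mean of 24 to 33 h), both in log2 units, for 50 mitosis and G2/M genes (circles) and 41 DNA replication genes (squares); on the dashed line both changes are equal. Nearly all circles lie below the line and nearly all squares above it; ZWINT (-1.23 on both axes) lies on it.

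The lag can also be given as the first time at which a gene reached the midpoint of its fall. This time was read from a running median over 3 arrays, for genes that fell by 1 log2 unit or more. Its median was 33.4 h over 48 mitosis and G2/M genes, with quartiles of 32.0 and 33.9 h, and it stayed between 31.6 and 33.9 h when any 1 array was left out. The earliest were ZWINT (16.2 h), PBK (16.4 h) and CCNF (23.7 h), and the latest TROAP (34.5 h), ASPM (34.4 h) and CCNB1 (34.1 h). In ZWINT and PBK the first crossing did not last, and both were back above their midpoint at 24 h. ZWINT was 8.37 at 21 h and 8.67 at 24 h, and PBK was 7.54 and 8.48. BUB3 and ESPL1 fell by less than 1 and have no such time. Over 33 DNA replication genes the median was 10.98 h, with a range from 9.91 to 14.9 h and 10.1 to 12.6 h when any 1 array was left out. The ranges of these 48 and 33 genes do not overlap: the earliest mitosis gene, at 16.2 h, came after the last replication gene. Of the 41 replication genes tested, only these 33 had such a time. CDC6, the earliest of them at 9.91 h, was detected on only 4 arrays. Over all probes with such a time the median was 13.2 h. Other kinetochore genes, described further on, lay across both ranges: over 22 of them the quartiles were 12.96 and 31.4 h. RRM2, which supplies deoxynucleotides for replication, had signals of 10.35 at 9 h and 8.22 at 12 h, and 6.91 at both 33 h and 36 h. Not every replication gene was level there: TK1 was 11.52 at 33 h and 10.58 at 36 h, and CDT1 was 10.49 and 9.68. The median difference between these arrays over the 41 genes was -0.23. With time points 3 h apart, a midpoint says no more than between which arrays the fall took place, and no test of the difference between the lists was made.

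Among the cyclins, CDK1 and its activators, 9 of 9 genes fell, 6 with a step at 33 to 36 h that passed. Cyclin B1 (CCNB1) had signals of 10.77, 10.72, 10.32 and 10.44 at 0 to 9 h, 10.50, 10.68, 10.65 and 10.49 at 12 to 21 h, 10.76, 10.52, 10.41 and 9.96 at 24 to 33 h, and 8.63, 8.38, 8.40 and 8.09 at 36 to 45 h. The first 12 values span less than 1 log2 unit, and all of the last 4 lie below them. Its linear change was -2.50 ± 0.25 (adjusted p = 9.14e-08) and its step -1.46 ± 0.23 (adjusted p = 0.0031). Cyclin B2 (CCNB2) followed the same pattern, with 13.38 at 33 h and 11.89 at 36 h and a step of -1.47 ± 0.15.

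Cyclin A2 (CCNA2), which acts in S phase as well as before mitosis, fell in both places. Its signals were 11.97, 11.97, 12.02 and 11.91 at 0 to 9 h, 11.15, 10.93, 10.89 and 10.57 at 12 to 21 h, 11.31, 11.01, 10.71 and 10.49 at 24 to 33 h, and 9.33, 9.13, 8.99 and 8.87 at 36 to 45 h. The 4 earliest arrays were the highest and the 4 latest the lowest, with no overlap with the others. CCNA2 had the largest linear change of its group (-3.20 ± 0.26), and its step of -1.22 ± 0.32 did not pass (adjusted p = 0.193). CDK1, listed as CDC2, was 12.83 (0 h), 12.79 (9 h), 12.13 (12 h), 11.25 (33 h) and 10.19 (36 h), a linear change of -3.14 ± 0.20 with a step of -1.07 ± 0.21 (adjusted p = 0.0286). CDC25C fell from 10.55 at 33 h to 8.83 at 36 h, and CDC25B, a phosphatase of the same family, from 12.68 to 11.61. The CDK1-binding subunit CKS1B had the smallest linear change of the group, at -1.68 ± 0.09. It was 14.69 (0 h), 14.23 (21 h), 13.68 (33 h), 13.31 (36 h) and 13.38 (45 h). Its largest drop between adjacent arrays was also that from 33 to 36 h (-0.37). CKS2, its close relative, dropped from 13.42 to 12.49 between 33 and 36 h, a step of -1.01 ± 0.14 that passed, while the step of CKS1B did not (-0.43 ± 0.11, adjusted p = 0.246).

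All 7 mitotic kinases fell, and the steps of PLK1 and NEK2 passed. PLK1, which acts from mitotic entry to cytokinesis, had signals of 10.82 (0 h), 9.66 (33 h), 8.72 (36 h) and 8.89 (45 h), with a linear change of -2.26 ± 0.21 and a step of -1.12 ± 0.23 (adjusted p = 0.0364). NEK2, a kinase of centrosome separation, stayed between 12.13 and 12.41 on the 10 arrays up to 27 h and went from 11.64 to 10.10 between 33 and 36 h (step -1.61 ± 0.18). AURKB, the kinase of the chromosomal passenger complex, had the largest linear change of the group, at -3.52 ± 0.32. Its signals were 11.91, 11.91, 12.19 and 12.20 at 0 to 9 h, 11.20, 10.73, 10.53 and 10.27 at 12 to 21 h, 10.99, 11.07, 10.66 and 10.57 at 24 to 33 h, and 9.14, 9.06, 8.83 and 8.25 at 36 to 45 h. The values fell in 2 stages with a return between them, and the step at 33 to 36 h did not pass (-1.21 ± 0.46, adjusted p = 0.635). AURKA, the kinase of the spindle poles, had the smallest linear change (-2.23 ± 0.21), with 11.83 at 33 h, 10.81 at 36 h and a step of -1.08 ± 0.23 that did not pass (adjusted p = 0.0558). MELK and PLK4, the kinase of centriole duplication, reached the midpoint of their fall at 28.6 and 29.4 h.

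**Figure D5:**
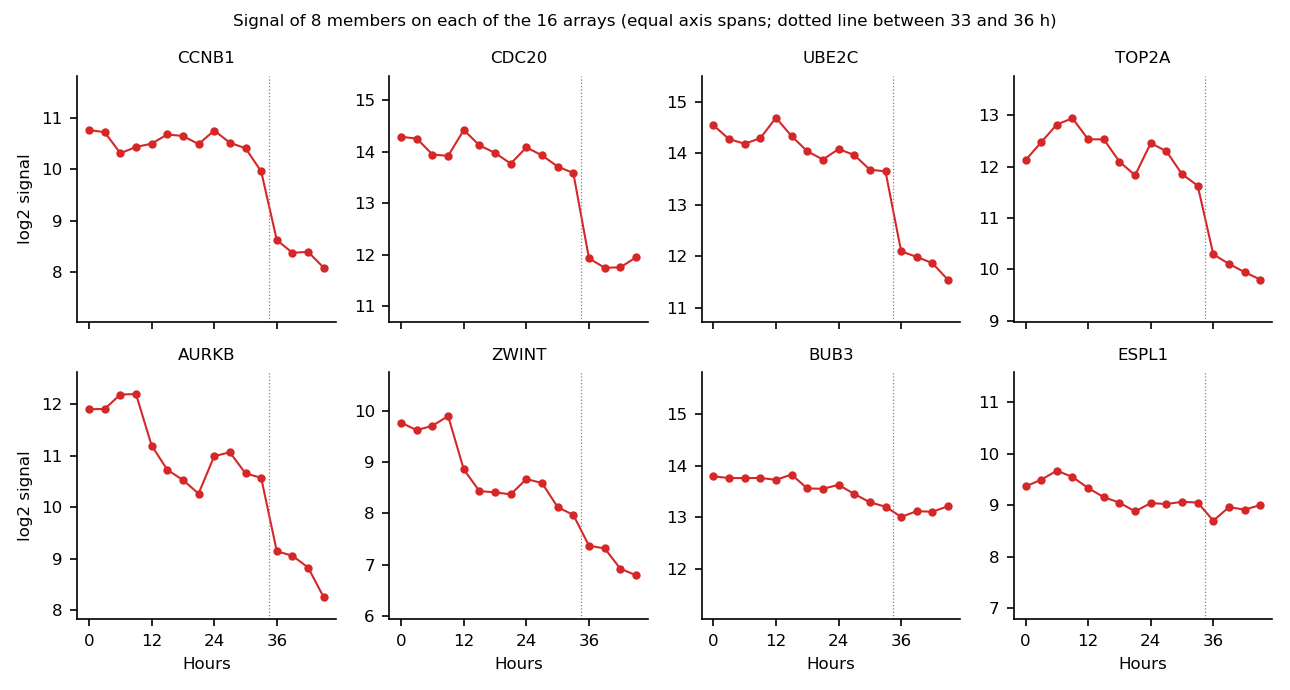
Log2 signal (y axes, each spanning the same range) on each of the 16 arrays (points) against hours in CP724,714 (x axes) for 8 mitosis and G2/M genes; the dotted line lies between 33 and 36 h. CCNB1, CDC20, UBE2C and TOP2A had their largest drop at the dotted line, AURKB and ZWINT fell between 9 and 12 h as well, and BUB3 and ESPL1 changed by less than 1 log2 unit overall.

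All 5 spindle checkpoint genes fell, over a wide range of linear changes, and the steps of BUB1 and TTK passed. BUB1, a checkpoint kinase, fell by -3.32 ± 0.25 with signals of 10.82 (0 h), 9.72 (33 h), 8.05 (36 h) and 7.58 (45 h), with a step of -1.53 ± 0.22 (adjusted p = 0.00174). The checkpoint kinase TTK went from 9.94 to 8.53 between 33 and 36 h (step -1.31 ± 0.26). BUB1B went from 7.98 to 7.12 over the same interval without passing (adjusted p = 0.248). BUB3, which brings BUB1 and BUB1B to kinetochores, changed least of the 5. It stood between 13.73 and 13.83 on the 6 arrays up to 15 h, at 13.20 (33 h), 13.01 (36 h) and 13.21 (45 h). That gradual decline of -0.83 ± 0.08 passed the linear test (adjusted p = 4.11e-08), and a dimmer BUB3 probe fell by 1.69. MAD2L1 was a dim signal, with 7.86 (0 h), 6.88 (24 h), 5.96 (30 h) and 5.01 (33 h), and was not detected at 30, 33, 36, 42 and 45 h. Its lowest values therefore have no order, and its rise between 33 and 36 h is not a measured one.

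In the group that carries out anaphase, CDC20, UBE2C and PTTG1 had steps that passed, and ESPL1 did not. CDC20, the activator of the anaphase-promoting complex, had signals of 14.29, 14.26, 13.95 and 13.92 at 0 to 9 h, 14.42, 14.13, 13.98 and 13.77 at 12 to 21 h, 14.08, 13.93, 13.71 and 13.59 at 24 to 33 h, and 11.93, 11.74, 11.75 and 11.94 at 36 to 45 h. The highest value was that of 12 h, and the lowest value up to 33 h (13.59) lay above the highest later one (11.94). UBE2C, the ubiquitin-conjugating enzyme of the same complex, was 14.55 (0 h), 14.70 (12 h), 13.65 (33 h), 12.10 (36 h) and 11.54 (45 h), the largest linear change of the group (-2.89 ± 0.22, step -1.33 ± 0.20, adjusted p = 0.00236). PTTG1, or securin, which keeps separase inactive, was 14.89 (0 h), 14.19 (33 h) and 12.72 (36 h), with a step of -1.70 ± 0.20 (adjusted p = 0.000401). ESPL1, the separase that cuts cohesin, had signals between 9.36 and 9.67 at 0 to 9 h and between 8.70 and 9.33 on the 12 arrays from 12 h on. It fell between the first and the second set of arrays (-0.42, adjusted p = 0.0068), and the later differences between sets (-0.06 and -0.15) did not pass. Its largest drop between adjacent arrays was still that from 33 to 36 h (-0.35).

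Among the 6 genes of centromere, kinetochore and chromosomal passenger complex, all fell and 3 steps passed. BIRC5, or survivin, a passenger subunit, had the largest linear change (-3.66 ± 0.29), from 11.75 (0 h) through 10.08 (21 h) and 9.78 (33 h) to 8.52 (36 h), with a step of -1.59 ± 0.30 (adjusted p = 0.0233). CDCA8, or borealin, another passenger subunit, had the smallest, at -2.61 ± 0.25. The kinetochore protein CENPF was 9.63 at 0 h and 10.21 at 9 h, a difference that did not pass (adjusted p = 0.0596), and went from 9.13 to 7.69 between 33 and 36 h (linear change -2.72 ± 0.23, step -1.32 ± 0.24, adjusted p = 0.016). CENPA went from 10.80 to 9.41 (step -1.61 ± 0.28). The kinetochore motor CENPE was 8.44 at 0 h and 7.03 at 33 h and was not detected from 36 h on. The kinetochore protein ZWINT differed from all of them. Its signals were 9.76, 9.62, 9.71 and 9.89 at 0 to 9 h, 8.86, 8.43, 8.41 and 8.37 at 12 to 21 h, 8.67, 8.59, 8.12 and 7.97 at 24 to 33 h, and 7.37, 7.32, 6.93 and 6.80 at 36 to 45 h. The drop from 9 to 12 h was the larger, and the step at 33 to 36 h was -0.49 ± 0.36.

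The 7 tested kinesin motors fell by -2.004 ± 0.28 (KIF14) to -3.46 ± 0.29 (KIF20A), and the steps of KIF20A, KIF4A and KIF23 passed. KIF20A, a motor of the spindle midzone, was 12.03 (0 h), 12.36 (9 h), 11.16 (33 h), 9.48 (36 h) and 8.75 (45 h), with a step of -1.66 ± 0.29 (adjusted p = 0.0101). KIF23, another motor of the midzone, was 9.75 at 33 h and 8.42 at 36 h. KIF15 was 7.72 at 33 h and was not detected at 36, 42 and 45 h, so the size of its drop is not known. KIF11, the motor that pushes the spindle poles apart, was 10.26 (9 h) and 9.46 (12 h), and 8.93 (33 h) and 7.91 (36 h).

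Spindle assembly, midzone and cytokinesis genes gave 6 steps that passed among 8 genes: TPX2, which activates AURKA on the spindle, NUSAP1, PRC1, ASPM, HMMR and TROAP. PRC1, the bundler of midzone microtubules, was 11.56 at 33 h and 10.30 at 36 h, and NUSAP1 was 13.01 and 11.45. ASPM, a protein of the spindle poles, was 11.17 (0 h), 11.62 (15 h), 11.02 (33 h) and 9.44 (36 h), and stayed between 10.95 and 11.62 on all arrays up to 33 h. TACC3 had the largest linear change of the group (-2.97 ± 0.22) and SPAG5 the smallest (-2.29 ± 0.18), and neither step passed.

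Of the remaining 4 genes, none had a step that passed, and all 4 fell. TOP2A, which disentangles sister chromosomes, had signals of 12.12, 12.47, 12.82 and 12.94 at 0 to 9 h, 12.53, 12.53, 12.10 and 11.83 at 12 to 21 h, 12.46, 12.30, 11.85 and 11.63 at 24 to 33 h, and 10.29, 10.11, 9.95 and 9.80 at 36 to 45 h. It rose within the first set, ended each later set lower than it began and was lowest on the last 4 arrays, with a step of -1.25 ± 0.29 (adjusted p = 0.0946) and the smallest linear change of these 4 (-2.86 ± 0.25). CDCA3, a trigger of mitotic entry, had the largest, at -3.85 ± 0.31. FOXM1, the transcription factor of the G2/M genes, was 10.36 (0 h), 10.91 (6 h), 9.14 (33 h), 7.99 (36 h) and 7.28 (45 h), with a linear change of -3.30 ± 0.24 and a midpoint at 32.1 h, and its step of -0.84 ± 0.35 did not pass. CDCA5 reached its midpoint at 29.3 h.

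Probes of the same gene mostly ran alike. Of 12 genes with more than 1 tested probe, ZWINT was the only one whose probes differed in the sign of the linear change. The probes of CDC2 changed by -3.14 and -3.12, those of FOXM1 by -3.30 and -3.26 and those of AURKA by -2.23 and -2.42. The dim probes of UBE2C (-1.35) and KIF23 (-1.57, detected on 5 arrays) changed less than the bright ones of the same genes (-2.89 and -3.12). A fall in a dim probe can go no lower than the background.

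Genes of the same machinery outside the 52 were described from lists named by function. Of 30 other kinetochore genes tested, 29 fell and none rose, with the largest fall in SPC25 (-4.22 ± 0.48) and the smallest change in ZW10 (-0.21 ± 0.11), which did not pass. SPC25 was detected on only 10 arrays, so the size of its fall is uncertain. A step at 33 to 36 h passed in 1 of the 30, and the late fall exceeded the early fall in 4 and was exceeded by it in 6. Their median midpoint was 28.7 h, with quartiles of 12.96 and 31.4 h. Of 26 other spindle and cytokinesis genes, 23 fell, 1 rose and 7 had a step at 33 to 36 h, led by FAM64A (linear change -3.42 ± 0.41, step -2.28), while the spindle pole protein NUMA1 rose by 0.93 ± 0.11. The step at 33 to 36 h passed in none of the genes of the next 3 lists. Of 16 core subunits and regulators of the anaphase-promoting complex, 5 fell and 4 rose, with a median of -0.06, from FBXO5 (-1.94 ± 0.23), an inhibitor of the complex, to C10orf104 (0.77 ± 0.15). FBXO5 was detected on only 6 arrays, so the size of its fall is uncertain. Over all probes, 21.7% fell and 26.0% rose, and with so few genes these counts and those of the next lists are given as a description. Of 14 condensin and cohesin subunits, 4 fell and 1 rose, from NCAPG2 (-2.35 ± 0.27) to NIPBL (0.84 ± 0.12). Among 15 brakes on CDK1 and mitotic exit phosphatases, 8 fell and 2 rose, from PKMYT1 (-3.60 ± 0.32), the kinase that inhibits CDK1, to the phosphatase CDC14B (1.20 ± 0.15).

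The complexes that act on the CHR were measured in part, and their subunit LIN54 had no probe used here. Of 12 subunits of MuvB, MYB and DREAM that were tested, 6 fell and 2 rose. B-MYB (MYBL2) was detected on 8 arrays, and its linear change of 0.02 ± 0.24 did not pass (adjusted p = 0.942). LIN9, a MuvB subunit, fell by -2.16 ± 0.20 and had a step at 33 to 36 h that passed (-1.14, adjusted p = 0.0177). The pocket protein RBL1 fell by -2.49 ± 0.24 with a midpoint at 11.2 h, and RBL2, the pocket protein of resting cells, rose by 0.94 ± 0.08. Within the members, the median step was -1.16 in 26 genes with a CHR and -1.34 in 14 without, and the median midpoint was 33.5 h in both, with no test of the difference. The 41 replication genes had a median linear change of -2.02, from RRM2 (-4.35 ± 0.40) to ORC6L (0.12 ± 0.09), and 39 fell.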

How the data were processed

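Each of the 16 SUM225 cultures was measured on 1 Illumina bead array after RNA extraction and biotin labelling; a Ref8 array is named for related arrays of the study. The deposited table holds intensities per probe, not normalized by the authors, and, also deposited, a p-value for detection of each probe on each array; scanner software and any background subtraction are not given in the sources used here. Intensities were background-corrected with a normal-exponential model inferred from the detection p-values (offset 16), quantile-normalized and log2-transformed with limma 3.58.1 in R 4.3.3. Depth does not apply to arrays, and 1 array per time point limits the precision. Probes detected (p under 0.05) on 3 or more arrays were fitted with lmFit and eBayes: a cubic in hours, with steps added, and means and slopes of 4 sets of 4 arrays. P-values were two-sided and adjusted by Benjamini-Hochberg over all 16110 probes. Probes were named by the symbols in the deposited table. The fits were tested on simulated data. The members, their roles, the lists, the genes named and the place of the steps were chosen with earlier results of these data known. Genes given in full were 16 set by name, the largest and smallest linear change of each role, and the extremes of step and midpoint. Promoters were taken from a RefSeq table of GRCh38.p14, the first start listed per gene. Alternatives changed the background, offset, normalization, probe filter, probe choice, array weights and fit, and left out each array in turn. Figures were drawn with matplotlib 3.10.9.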

Additional observations from a re-analysis of the deposited data

How the results depend on the processing

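No paired analysis was possible because only 1 array was made at any time. All 50 genes kept a falling trend that passed the test under each background, offset and normalization, with no filter, with array weights and without any 1 array, as did 47 of 47 with detection on all 16 arrays and 49 of 50 by their dimmest probe; with a level for each set of 4 arrays and a straight line it was 11 genes, with a median of -1.82. Without background correction the median linear change was -2.20 and 14 genes had the step at 33 to 36 h. With median scaling, 3 genes rose within 0 to 9 h and 6 fell within 24 to 33 h. Detection on all 16 arrays gave 2 genes, and the dimmest probe 3, that fell between 12 to 21 h and 24 to 33 h. Leaving out 1 array at a time gave 6 to 29 genes with the step at 33 to 36 h, 9 to 27 with the step up at 21 to 24 h, 2 to 10 that rose and 0 to 1 that fell within 0 to 9 h, 0 to 20 that fell within 12 to 21 h, 0 to 21 within 24 to 33 h and 1 to 4 between those sets. The causes were not tested beyond the loss of arrays. Of 381 recomputed main values 344 stayed alike, and of 640 values of the 16 genes given in full 598 kept their side of the threshold, 34 lost it, 8 gained it and none changed sign; all 320 of their linear changes kept it. The trend within sets of arrays, the slopes over 4 arrays and the step counts are the results that single arrays limit most. The step up, the comparison of late with early fall, the slopes within 12 to 21 h and 24 to 33 h and the midpoint of the replication genes were added after seeing the data.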
